A study of Mus musculus with 441 samples.

Results

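The transcripts described here belong to 9 genes of the pancreas: 6 of islet endocrine cells (Ins1, Ins2, Iapp, Chga, Gcg and Sst) and 3 of the acinar cells that make digestive enzymes (Cela1, Amy2a5 and Clps). They were chosen by name from a table of 13561 genes, as genes that lymphocytes are not known for making. Earlier results of these data were known when they were chosen. The table covers 441 single cells from mouse pancreatic islets, sorted by FACS as CD4 T cells that bind a tetramer, which is a linked set of peptide-carrying MHC molecules, and sequenced by SMART-Seq2. The HIP tetramer sort gave 184 cells: 111 T follicular helper (TFH) cells, 3 regulatory T cells (Tregs), 61 cells of cluster 2, which is annotated as activated CD4 T cells, and 9 dividing CD4 T cells. The Ins tetramer sort gave 257 cells: 61 TFH cells, 115 Tregs, 25 cells of cluster 2, 35 dividing cells and 21 cells of cluster 4, which is annotated as B cells. The labels give no strain, age, genotype or animal for either sort and do not spell out the names HIP and Ins. Each sort was therefore 1 sample: no test was possible, no difference between sorts has a replicate check, and every interval is an exact Clopper-Pearson 95% interval that covers counting error only.

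Pancreatic islets are clusters of hormone cells set in exocrine tissue. Beta cells release insulin together with the amyloid peptide IAPP, alpha cells release glucagon and delta cells release somatostatin, while acinar cells secrete elastases, amylases, lipases and their cofactor colipase. These genes are transcribed at very high levels in the cells that own them, and their messages are among the most abundant of the whole pancreas. Insulin and chromogranin A peptides are also known antigens of islet-reactive CD4 T cells in mice with autoimmune diabetes.

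The mouse has 2 insulin genes, and their coding sequences are shown because they bear on whether reads can be assigned to one or the other. The first 187 coding bases, cut at the same position in both, start at the initiator ATG and run through the signal peptide and B chain into the C-peptide. They come from the GENCODE M21 transcripts on GRCm38, at chr19:52264624-52264810 on the plus strand for Ins1 and chr7:142679347-142679533 on the minus strand for Ins2. Capitals mark the 15 bases that differ, which leaves 92.0% identity.
Ins1: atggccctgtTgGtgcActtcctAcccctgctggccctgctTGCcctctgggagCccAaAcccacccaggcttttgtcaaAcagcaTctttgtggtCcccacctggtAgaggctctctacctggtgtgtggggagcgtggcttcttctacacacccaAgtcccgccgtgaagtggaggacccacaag
Ins2: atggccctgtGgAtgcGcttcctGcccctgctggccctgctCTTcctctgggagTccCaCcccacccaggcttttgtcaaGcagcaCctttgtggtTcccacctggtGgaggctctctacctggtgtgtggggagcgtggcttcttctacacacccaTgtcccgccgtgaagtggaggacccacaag
The longest stretch shared by the full coding sequences was 54 bases. The libraries were read with 50 bases from one end and 25 from the other. Of the 50-base windows of the Ins1 coding sequence, 5 of 275 (1.82%) also occurred in an Ins2 transcript, and of the 25-base windows 63 of 300 (21.0%) did. Most of these windows could thus be told apart by sequence, and a share could not. Read pairs and windows outside the coding sequence were not examined.

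In the RefSeq annotation of GRCm38, Ins1 lies on chromosome 19 at 52264297 to 52265015 on the plus strand, and Ins2 on chromosome 7 at 142678656 to 142679726 on the minus strand. Iapp is on chromosome 6 (142298425 to 142303820, plus strand), Chga on chromosome 12 (102554941 to 102565027, plus strand), Gcg on chromosome 2 (62474530 to 62483653, minus strand) and Sst on chromosome 16 (23889573 to 23891342, minus strand). Of the acinar genes, Cela1 is on chromosome 15 (100674422 to 100687920, minus strand), Amy2a5 on chromosome 3 (113249178 to 113258699, minus strand) and Clps on chromosome 17 (28558210 to 28560766, minus strand).

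At least 1 of the 9 transcripts was detected in 95 of 441 cells (21.5%, interval 17.8 to 25.7%), where detected means 1 TPM or more. TPM is the length-scaled share of a transcript out of 1000000 per cell, and it keeps no sequencing depth, so the depth per cell is unknown. Of these 95 cells, 65 held 1 of the genes, 20 held 2 and 10 held 3, and none held more. An endocrine transcript without an acinar one was found in 60 cells, the reverse in 27 cells, and both kinds in 8. The 9 genes together took between 0.000279% and 2.62% of a carrying cell's TPM, with a median of 0.0895%. In 3 cells they took 1% or more, and in 51 cells less than 0.1%.

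The carrying cells held T cell transcripts. Of 11 T cell genes, the 94 carrying cells of the T cell classes had a median of 9 (range 2 to 11), and the 326 other T cells also had a median of 9 (range 0 to 11). Cd3e, a chain of the T cell receptor complex, was detected in 90 of 94 carrying cells (95.7%, interval 89.5 to 98.8%) and in 316 of 326 others (96.9%). Cd4 was detected in 83 of 94 (88.3%) and in 277 of 326 (85.0%). Cd5, a surface inhibitor of T cell receptor signalling, was the only one of the 11 with intervals that did not overlap: it was detected in 60 of 67 T cells with an endocrine transcript (89.6%, interval 79.7 to 95.7%) and in 203 of 326 with none of the 9 genes (62.3%, interval 56.8 to 67.5%). In T cells with an acinar transcript it was in 26 of 35 (74.3%, interval 56.7 to 87.5%). The label of lymphocytes thus held for the carrying cells by these markers. The median number of genes detected was 2268.5 in the 94 carrying T cells and 2013 in the 326 others. Within classes these medians were 2006 and 1951 genes in TFH cells, 2269 and 1981.5 in Tregs, 2129 and 2025 in cluster 2, and 3909 and 3553 in dividing cells, carrying cells first. The upper quartile of T cells by gene number held 32 of the 94 carrying cells (34.0%). The part that gene number plays in the detection of the transcripts was not tested.

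Ins2, the insulin gene that the mouse shares with other mammals by position, was the most widespread of the 9. It was detected in 44 cells, all of T cell classes: 17 of the 184 HIP T cells (9.24%) and 27 of the 236 Ins T cells (11.4%, interval 7.68 to 16.2%). In the HIP cells that carried it, Ins2 ranged from 125.1 to 9361 TPM with a median of 1386 TPM, and in the Ins cells from 68.9 to 4217 TPM with a median of 515.1 TPM. The ranges overlapped over most of their length, and the highest single value belonged to a HIP TFH cell. Over all T cells the mean was 174.9 ± 826.6 TPM in HIP (SD over 184 cells) and 103.3 ± 456.7 TPM in Ins (SD over 236 cells), a ratio of 1.69; this SD is spread between cells, not replicate error. Without the HIP cell with the highest value the ratio was 1.21.

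Ins1, the rodent retrogene copy of insulin, was detected in 20 cells, 8 from the HIP sort (4.35% of its T cells) and 12 from the Ins sort (5.08%). Its level was lower than that of Ins2: 3.06 to 754.7 TPM with a median of 243.7 TPM in HIP carriers, and 6.06 to 1737 TPM with a median of 236.2 TPM in Ins carriers. The 2 insulin genes were found together in 10 cells, and in all 10 of them Ins2 was the higher. The ratio of Ins2 to Ins1 in these cells was 7.43 at the median, and it spanned 2.43 to 28.0. Ins2 had a median of 1792 TPM in the 10 cells that also held Ins1, and of 742.8 TPM in the 34 cells that did not. Ins1 without Ins2 occurred in 10 cells, at 3.06 to 1187 TPM with a median of 195.9 TPM. Reads that fit both genes could raise or lower either value, and the counting is not described closely enough to say by how much.

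Iapp, which encodes the amyloid peptide stored with insulin, was detected in 10 cells, 4 from the HIP sort (2.17% of its T cells) and 6 from the Ins sort (2.54%). The 4 HIP cells held 121.9, 387.9, 498.3 and 1767 TPM. The 6 Ins cells held 145.9, 293, 366.5, 545.5, 926.6 and 1475 TPM, within the span of the HIP cells. All 3 beta cell transcripts occurred together in 3 cells: a TFH cell and a cluster 2 cell of the HIP sort and a Treg of the Ins sort. The HIP TFH cell, number 55, held 754.7 TPM of Ins1, 9361 of Ins2 and 1767 of Iapp. The HIP cluster 2 cell, number 40, held 640.3, 3153 and 498.3 TPM of the same genes, and the Ins Treg, number 321, held 1737, 4217 and 926.6 TPM. Only Ins Treg number 121, with 3713 TPM of Ins2 and 563.2 TPM of Ins1 but no Iapp, stood among them in Ins2 level.

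Chga, a soluble protein of the secretory granules of endocrine cells, was nearly missing. It was found in 2 Tregs, at 329.6 TPM in 1 of the 3 HIP Tregs and at 2.79 TPM in 1 of the 115 Ins Tregs. No other of the 9 genes was detected together with it.

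Gcg, the glucagon gene of alpha cells, was detected in 8 cells. The 4 HIP T cells ranged from 304 to 701.1 TPM. In the Ins sort 3 T cells held 822.7, 2430 and 7161 TPM, and 1 cell of cluster 4 held 1689 TPM, the only endocrine or acinar member found in that cluster. All 4 Ins cells lay above all 4 HIP cells. With so few cells of 1 sample each, that order is a description. Sst, the somatostatin gene of delta cells, was detected in 5 cells, 3 of the HIP sort at 22.27, 47.53 and 1754 TPM and 2 of the Ins sort at 278 and 1379 TPM.

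Among the acinar genes, Clps was the most widespread. It encodes colipase, the cofactor of pancreatic lipase, and was detected in 9 T cells of the HIP sort (4.89%) and 13 of the Ins sort (5.51%). Its level had a median of 1102 TPM in HIP carriers and 1022 TPM in Ins carriers, and the lowest carriers held 256 TPM in HIP and 273 TPM in Ins. Cela1, an elastase, was detected in 7 T cells of the HIP sort and 5 of the Ins sort. It had a median of 1282 TPM with a range of 389.9 to 2911 TPM in the HIP carriers, and a median of 515.5 TPM with a range of 181.2 to 8588 TPM in the Ins carriers. Amy2a5, a pancreatic amylase, was detected in 4 HIP T cells (2.17%) and 8 Ins T cells (3.39%), at 12.79 to 1936 TPM in HIP and 7.33 to 13820 TPM in Ins. The share of carrying cells in the 2 sorts had overlapping intervals for each of the 9 genes.

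**Figure D1:**
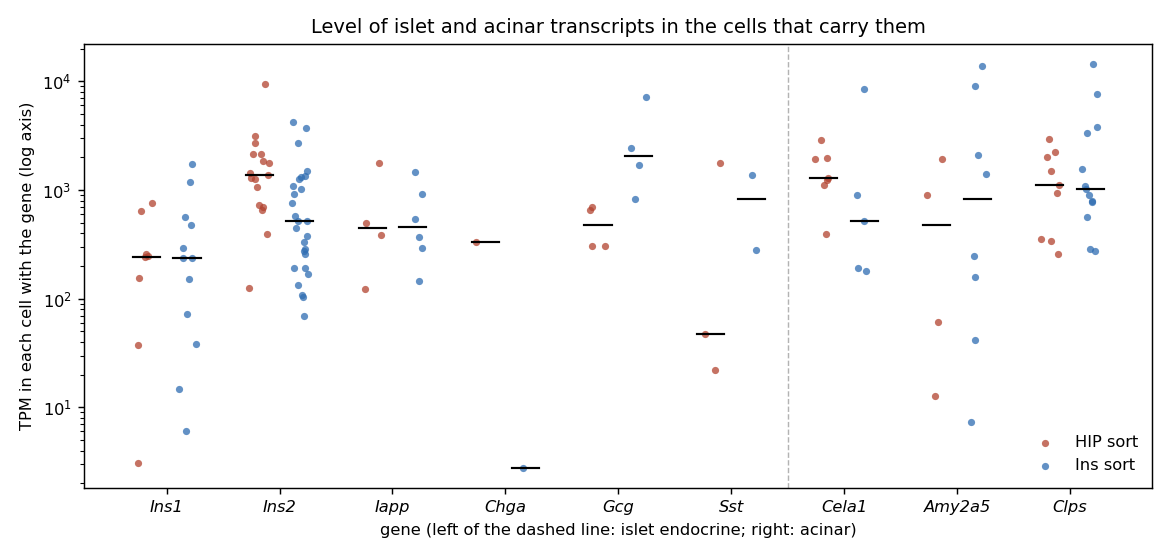
Level of each transcript in every cell that carried it, in TPM on a log axis, with HIP cells left of Ins cells for each gene; points are cells, black bars are medians, and the dashed line parts the endocrine from the acinar genes. Carrying cells of both sorts spread over more than a factor of 10 for most genes, Ins2 reached 9361 TPM in a HIP cell, and the 4 Gcg values of the Ins sort all lie above the 4 of the HIP sort.

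The Amy2a5 row needs care. Its coding sequence of 1524 bases was 100% identical to those of Amy2a2, Amy2a3 and Amy2a4, so reads of these copies cannot be told apart within it. The rows of Amy2a2, Amy2a3 and Amy2a4 held the same value, within 0.1%, in all 26 cells where they were detected. Their median there was 1.255 TPM, close to the detection limit of 1 TPM, and they reached 24.1 TPM at most. Only 5 of those 26 cells also had Amy2a5, and 7 of the 12 Amy2a5 cells lacked the copies. Any amylase row at all was detected in 35 cells, 17 of 184 HIP cells (9.24%) and 18 of the Ins T cells (7.63%). That count takes in 21 cells with the copies and no acinar member.

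Side by side, the 2 sorts carried these transcripts at close to the same frequency. Any of the 9 was found in 41 of the 184 T cells of the HIP sort (22.3%, interval 16.5 to 29.0%) and 53 of the 236 of the Ins sort (22.5%, interval 17.3 to 28.3%). An endocrine transcript was found in 27 T cells of the HIP sort (14.7%, interval 9.90 to 20.6%) and 40 of the Ins sort (16.9%, interval 12.4 to 22.4%). For an acinar transcript the counts were 15 in the HIP sort (8.15%, interval 4.63 to 13.1%) and 20 in the Ins sort (8.47%, interval 5.25 to 12.8%).

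In mean TPM over all T cells, 6 of the 9 genes were detected in the 10 T cells required for a ratio, and Chga, Gcg and Sst were not. Of the 6, none was at least 2 times higher in HIP than in Ins cells, against 11.2% of all 10001 genes that met the same condition. Amy2a5 and Clps were at least 2 times lower in HIP, against 11.8% of all genes, and 23% of all genes passed in either direction. Amy2a5 averaged 15.8 TPM in HIP and 113.8 TPM in Ins T cells, a ratio of 0.139, and Clps averaged 63.6 TPM in HIP and 154.6 TPM in Ins T cells, a ratio of 0.412. Single cells set both values: without the 2 highest cells of each gene the ratios were 0.932 for Amy2a5 and 1.03 for Clps. For the other 4 genes the ratio over all T cells was 0.599 for Ins1, 0.948 for Iapp, 1.34 for Cela1 and 1.69 for Ins2. Without the highest cell of each gene the ratio was 7.76 for Cela1, 0.347 for Iapp and 0.912 for Ins1, and without the 2 highest it was 1.43 for Ins1, so these ratios also follow 1 or 2 cells. The median ratio of the 6 genes was 0.773, beside 1.01 for all genes tested, but it was 1.23 without the 2 highest cells of each gene, so its direction also turns on single cells.

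Across the annotated classes the shares differed more than between sorts. Any of the 9 transcripts was found in 17 of 44 dividing cells (38.6%, interval 24.4 to 54.5%) and in 12 of 86 cells of cluster 2 (14.0%, interval 7.42 to 23.1%), and these intervals did not overlap. Without block 2, one of the blocks of cell numbers described below, dividing cells had 7 of 29 (24.1%, interval 10.3 to 43.5%), which overlaps cluster 2. Dividing cells also had more genes detected, so the class and the gene number cannot be told apart here. Among TFH cells the share was 27 of 111 in HIP (24.3%, interval 16.7 to 33.4%) and 8 of 61 in Ins (13.1%, interval 5.84 to 24.2%), with overlapping intervals. In cluster 2 it was 10 of 61 in HIP (16.4%) and 2 of 25 in Ins (8.00%). Among dividing cells it was 3 of 9 in HIP (33.3%) and 14 of 35 in Ins (40.0%, interval 23.9 to 57.9%). Tregs, nearly all of the Ins sort, had 29 of 115 carrying cells in Ins (25.2%, interval 17.6 to 34.2%). Cluster 4 had 1 of 21 (4.76%, interval 0.121 to 23.8%) with a median of 2477 genes per cell, against 94 of 420 T cells (22.4%, interval 18.5 to 26.7%) with a median of 2064 genes. Sdc1, a gene of antibody-secreting cells, was detected in 20 cells and in no T cell. Igj, of the same list, reached 320600 TPM in cluster 4, a large part of that cell's total. Gene number alone therefore does not make cluster 4 comparable with the T cells.

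**Figure D2:**
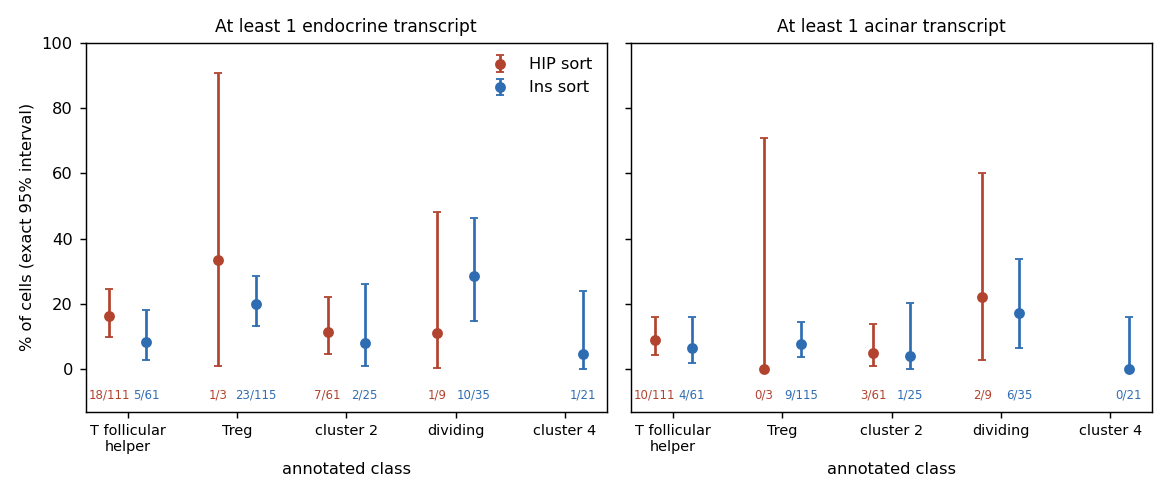
Share of cells with at least 1 endocrine transcript (left) and at least 1 acinar transcript (right) in each annotated class, in percent, with HIP left of Ins; points are shares, bars are exact 95% intervals for counting error, and the numbers below give carrying cells over all cells. The intervals of the 2 sorts overlap in every class that both hold, and Ins dividing cells have the highest Ins share for both kinds of transcript.

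Among classes, Ins2 was spread differently in the 2 sorts. It was detected in 12 of 111 HIP TFH cells (10.8%) and 3 of 61 Ins TFH cells (4.92%), in 5 of 61 HIP cluster 2 cells (8.20%) and 1 of 25 Ins cluster 2 cells (4.00%), and in 15 of 115 Ins Tregs (13.0%, interval 7.49 to 20.6%). Among dividing cells none of 9 from the HIP sort had it, a count of 0 that leaves room for up to 33.3%, and 8 of 35 from the Ins sort did (22.9%, interval 10.4 to 40.1%). None of the 3 HIP Tregs had it either. None of the 21 cells of cluster 4 had it, which leaves room for up to 14.3%. The 8 dividing carriers held little of it: 68.9 to 287.2 TPM with a median of 179.9 TPM, against 107.2 to 9361 TPM with a median of 1177 TPM in the 36 other carriers. Across the 44 carriers, log2 Ins2 TPM fell with the number of genes detected, with r = -0.62 and rho = -0.59, and r = -0.58 over 42 cells without the 2 cells farthest in gene number. Without dividing cells r was -0.25 and rho -0.31 over 36 cells, so most of the relation rests on the dividing class. These cells share 2 sorts, and TPM is a share of each cell's own total.

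Cell numbers in the labels ran in blocks of 96, and each block held cells of 1 sort. They may be plates, which the labels do not name. Any of the 9 transcripts was found in 22.7% of T cells in block 1 and 21.9% in block 3 (both HIP), and in 34.3% in block 2, 19.0% in block 4 and 16.1% in block 5 (all Ins). Ins2 was found in 11.4% of T cells in block 1 and 7.29% in block 3, and in 20.0% in block 2, 11.4% in block 4 and 4.60% in block 5. The spread among Ins blocks was thus wider than the distance between the sorts. Without block 2 the Ins T cells had any transcript in 29 of 166 (17.5%) and Ins2 in 13 of 166 (7.83%). Block 2 also held 7 of the 8 dividing Ins cells with Ins2: 7 of its 15 dividing cells carried it (46.7%, interval 21.3 to 73.4%), against 1 of 20 in the other Ins blocks (5.00%, interval 0.127 to 24.9%). Block 2 thus sets most of the Ins2 share of dividing cells.

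Neighbouring cell numbers were compared within blocks, and the counts were pooled over blocks. The blocks differed in Ins2 share, from 4.60 to 20.0% of T cells. The part that this difference plays in the pooled shares was not tested. The next cell number carried Ins2 in 10 of 43 cases after a cell with Ins2 (23.3%, interval 11.8 to 38.6%) and in 32 of 384 cases after a cell without it (8.33%, interval 5.77 to 11.6%). Cells 321 to 325, all Tregs of the Ins sort, carried Ins2 in 5 of 5, at 274.3 to 4217 TPM. Cells 97 to 102 of the Ins sort carried it in 5 of 6, at 68.9 to 1497 TPM, and 4 of those 5 were dividing cells. Both runs were picked after their values were seen. Without block 2, which holds the run from 97, the shares were 7 of 30 (23.3%, interval 9.93 to 42.3%) and 23 of 328 (7.01%, interval 4.50 to 10.3%). Without block 4, which holds the run from 321, they were 6 of 34 (17.6%, interval 6.76 to 34.5%) and 27 of 303 (8.91%, interval 5.955 to 12.7%). Without both blocks they were 3 of 21 (14.3%) and 18 of 247 (7.29%). The intervals overlapped in each of these cases, also where only block 2 was left out. For any endocrine transcript the shares were 16 of 66 (24.2%) and 49 of 361 (13.6%). Clps showed no such difference, with 1 of 21 (4.76%) and 19 of 406 (4.68%). The labels do not say what a cell number stands for.

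**Figure D3:**
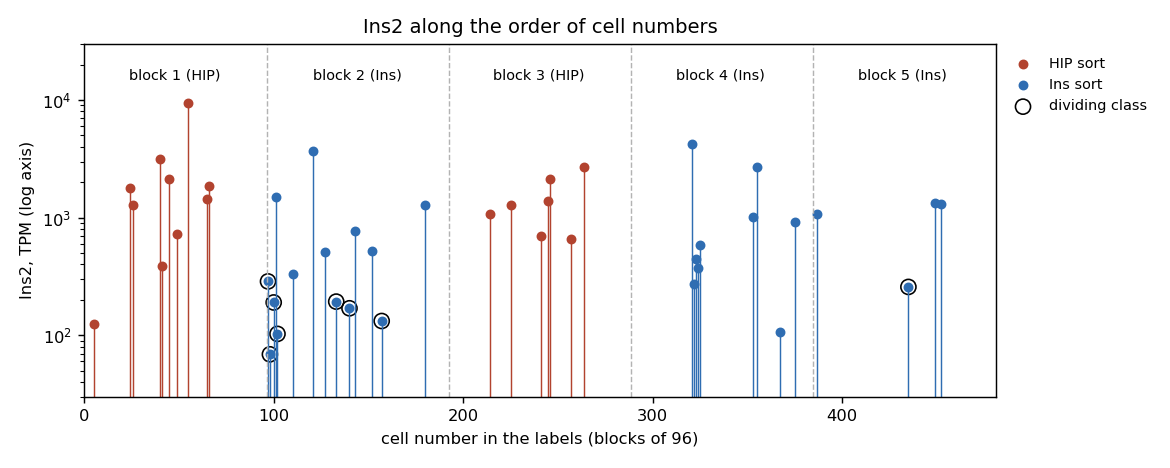
Ins2 level in TPM on a log axis against the cell number in the labels; each stem is a cell with Ins2, red for HIP and blue for Ins, black rings mark dividing cells, and dashed lines part the blocks of 96 numbers. Cells 97 to 102 and 321 to 325 stand close together, and 7 of the 8 ringed cells lie in block 2.

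Transcripts of 1 source tended to occur in the same cells. Iapp was found in 7 of 54 cells with an insulin transcript (13.0%, interval 5.37 to 24.9%) and in 3 of 387 cells without (0.775%, interval 0.160 to 2.25%). Cela1 or Amy2a5 was found in 7 of 22 cells with Clps (31.8%, interval 13.9 to 54.9%) and in 13 of 419 cells without (3.10%, interval 1.66 to 5.25%). Between sources the shares lay closer. Gcg or Sst was found in 4 of 57 cells with a beta cell transcript (7.02%) and in 9 of 384 without (2.34%), with overlapping intervals. An acinar transcript was found in 8 of 68 cells with an endocrine one (11.8%, interval 5.22 to 21.9%) and in 27 of 373 without (7.24%, interval 4.82 to 10.4%). By sort, that was 1 of 27 (3.70%) and 14 of 157 (8.92%) in HIP T cells, and 7 of 40 (17.5%, interval 7.34 to 32.8%) and 13 of 196 (6.63%, interval 3.58 to 11.1%) in Ins T cells. The 2 sorts thus ran in opposite directions, with few cells behind either. Cela1 was found in no cell with Ins1, Ins2 or Iapp, but only 12 cells held it, and the interval of 0 of 12 runs to 26.5%. Ins2 was found together with Clps in 3 cells and with Amy2a5 in 2.

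**Figure D4:**
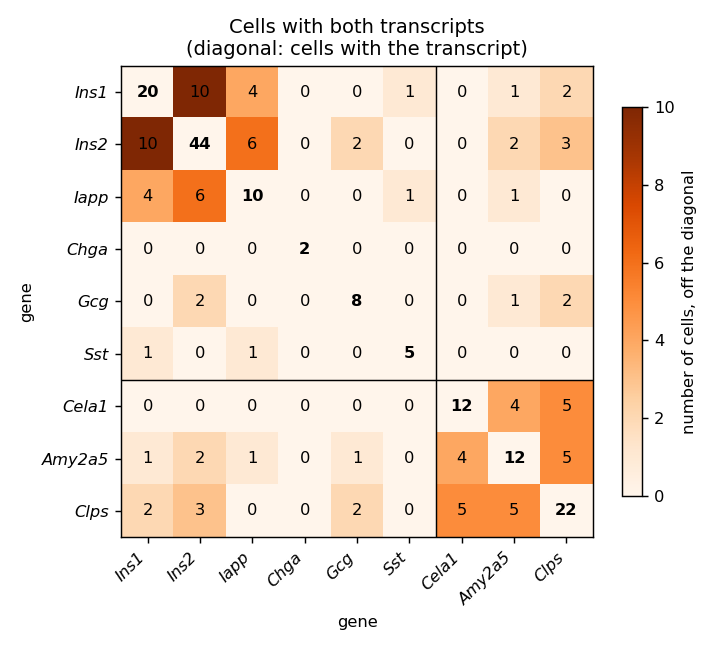
Number of cells in which both of 2 transcripts were detected, with the number of cells with each transcript on the diagonal; lines part the endocrine from the acinar genes. The counts gather in the block of Ins1, Ins2 and Iapp and in the block of Cela1, Amy2a5 and Clps, with 10 cells for Ins1 with Ins2 and 5 for Clps with Cela1.

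Other acinar genes came with the acinar members. Of 26 further acinar genes in the table, among them the trypsinogen Prss2 and the elastase Cela2a, at least 1 was detected in 19 of 35 cells with an acinar member (54.3%, interval 36.7 to 71.2%) and in 39 of 406 cells without (9.61%, interval 6.92 to 12.9%). Without the amylases Amy1 and Amy2b these were 17 of 35 (48.6%, interval 31.4 to 66.0%) and 38 of 406 (9.36%). The share was 13 of 22 among cells with Clps (59.1%) and 5 of 12 among cells with Cela1 (41.7%). Among cells with an endocrine transcript and no acinar member it was 2 of 60 (3.33%), and among cells with none of the 9 genes it was 37 of 346 (10.7%). Bhlha15, 1 of the 26 further genes, was detected in 9 cells. Among T cells it was in 0 of 67 with an endocrine transcript, 0 of 35 with an acinar one and 1 of 326 with neither. Its remaining cells were of the class annotated as B cells. The sets of 406 and 346 cells include that class, so their shares rest partly on Bhlha15 there. Shares without Bhlha15 were not tested.

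A few cells held much of the acinar program. Ins Treg number 130 held 23 of the 26 further genes as well as all 3 members, and acinar transcripts took 7.69% of its TPM. The same cell had 8 of the 11 T cell genes, with Cd3e at 451.8 TPM and Cd4 listed at 0, and 2284 genes detected. Ins Tregs 103 and 331 held 13 further acinar genes each, with 2.43% and 1.77% of TPM, and number 331 also carried Gcg at 2430 TPM. Ins Treg 440 held 8, with 5.03% of its TPM. In the HIP sort the cell with the most was TFH cell number 36, with 6 further genes, all 3 members and 1.17% of TPM.

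**Figure D5:**
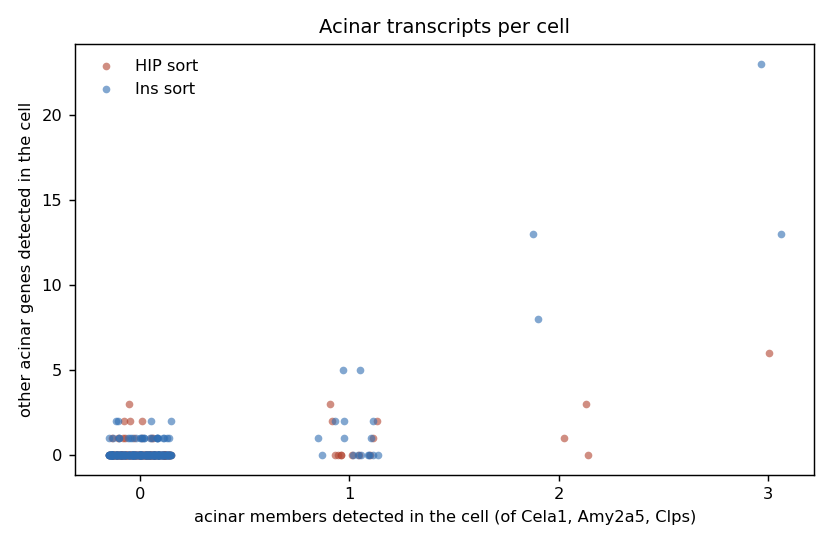
Number of further acinar genes detected in each cell, against how many of Cela1, Amy2a5 and Clps it carried; points are cells, red for HIP and blue for Ins, and are spread sideways by chance for legibility. An Ins Treg reaches 23 further genes, 2 other Ins Tregs reach 13, and most cells with 1 member lie at 0 to 2.

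For beta cells no such company was seen over the list as a whole, but few genes could show it. Of 30 further beta cell genes, 7 were in the table and the other 23 were not analysed here. The 3 found in most cells were Hadh, a fatty acid oxidation enzyme of many cell types, with 70 cells, Slc18a2 with 31 and Ero1lb with 19. At least 1 of the 7 was detected in 15 of 57 cells with Ins1, Ins2 or Iapp (26.3%, interval 15.5 to 39.7%) and in 108 of 384 cells without (28.1%, interval 23.7 to 32.9%). The 384 cells include the class annotated as B cells. Among T cells, Ero1lb was in 4 of 67 with an endocrine transcript (5.97%) and 5 of 326 with none of the 9 genes (1.53%). The 2 intervals overlapped. Scg5 and Slc18a2 also lay higher with an endocrine transcript (2.99% and 9.0%, against 1.53% and 6.13%). Hadh lay lower (11.9% against 16.3%). Nnat, Abcc8 and Ptprn2 were in 0 of 67, against 3.07%, 0.307% and 0.307%. Of 12 genes of alpha, delta and other endocrine cells, only Slc7a2, which was detected in 312 cells, and Hhex, detected in 2, were in the table.

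Markers of other cell types were found in some carrying cells and some others, at shares that rest on few cells for most lists. At least 1 of 6 B cell genes was detected in 19.4% of T cells with an endocrine transcript, in 25.7% of those with an acinar one and in 17.5% of those with neither. Of these 6 genes only Cd22 was detected in the carriers. It was in 19.4% of endocrine carriers, 25.7% of acinar carriers and 14.7% of the others, with overlapping intervals. Cd79a, a defining B cell gene, was detected in 0 of 67 and 0 of 35 endocrine and acinar carriers, which leaves room for up to 4.48% and 8.57%. The others had Cd79a in 5 of 326 (1.53%), a share within that room. At least 1 of 2 endothelial genes was detected in 10.4% of endocrine carriers, 5.71% of acinar carriers and 13.2% of the others. For 4 duct and epithelial genes these shares were 5.97%, 2.86% and 7.67%, and for 7 myeloid genes, among them the widely expressed Cst3, they were 65.7%, 65.7% and 62.0%. Genes of antibody-secreting cells, led by Xbp1 and Prdm1, which activated T cells also express, were found in 58.2%, 54.3% and 43.2%. Of the 7 erythroid symbols 4 were in the table, with Alas2 in 10 cells and Beta-s and Hba-a1 in 1 each. At least 1 of the 4 was detected in 2 of 67 endocrine carriers (2.99%), 3 of 35 acinar carriers (8.57%) and 8 of 326 others (2.45%). Of 6 stellate and fibroblast symbols none was in the table. The genes of these lists found in most of the 441 cells were Cd22 (72 cells), Cd79b (25) and Cd79a (24) for B cells, Pecam1 (53) and Cdh5 (2) for endothelium, and Epcam (22), Spp1 (9) and Muc1 (3) for ducts. For myeloid cells they were Cst3 (274), Cd68 (32) and Fcer1g (20), for antibody-secreting cells Xbp1 (133), Prdm1 (111) and Igj (39), and for T cells Cd3e (407), Lck (402) and Cd3g (401).

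The genes whose log2(TPM + 1) was most like each member over the 441 cells were ranked among 11390 genes, with no test, since the cells share their sorts and most hold 0. For Ins1 they were Ins2 (r = 0.33), Iapp (0.32) and Pkhd1l1 (0.27), and for Ins2 they were Ins1 (0.33), Iapp (0.29) and Chst14 (0.22). Iapp was most like Siglece (0.35), Ins1 (0.32) and Kctd12 (0.29). Pkhd1l1, Chst14, Siglece and Kctd12 each shared only 3 cells with their member. For Gcg they were Zbtb46 (0.32), Fastkd1 (0.30) and Lgals7 (0.27), and for Sst Lrrc29 (0.42), AW011738 (0.30) and Hdac2 (0.28), from 8 and 5 carrying cells. Lgals7 and Hdac2 shared 1 cell with their member, and the other genes named for Gcg and Sst shared 2. The acinar genes had closer company. Cela1 was most like Amy2a5 (0.42), Amy1 (0.41) and Amy2b (0.38), and Clps like the trypsinogen Prss2 (0.63), Amy1 (0.52) and 2210010C04Rik (0.46). Amy2a5 was most like Amy1 (0.91), Amy2b (0.82) and the elastase Cela2a (0.71). The coding sequence of Amy2a5 shared 34 of 1475 windows of 50 bases (2.31%) and 194 of 1500 windows of 25 bases (12.9%) with Amy1. Amy2b was not compared in sequence. The part that shared reads play in the correlations among amylase rows was not tested.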

How the data were processed

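Full-length SMART-Seq2 libraries of 441 single cells were sequenced with paired reads of 50 and 25 bases, per the labels' protocols. The submitters' processing notes list TopHat, Bowtie, RSEM 1.2.8 and the build mm10 but not their roles. Any filters before deposit are unstated in those notes. The authors deposited natural log values, ln(TPM/10 + 1), for 13561 genes, which were turned back into TPM; the deposited TPM then summed to 1000000 in 441 of 441 cells. Class, sort and the count of genes detected per cell (625 to 5929, median 2081) came from the authors' deposited annotation and matched the labels in all 441 cells. Classes came from clustering these same expression values.

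The 9 genes and all marker lists were chosen with earlier results of these data known. A gene was called detected at 1 TPM. T cells are clusters 0 to 3. Animals are not named in the labels. Each sort was therefore taken as 1 sample, and no test, p-value or standard error was made from cells. Shares are given with exact Clopper-Pearson 95% intervals, and shares of 0 with 3 cells over the total as the limit. Both cover counting error only and concern cells with a detected transcript. Ratios of mean TPM, HIP over Ins, were taken for genes detected in at least 10 T cells, and 2 times apart was the size for a call. Free RNA can give transcripts in cells that do not express a gene, and no other cell type in the table could serve as its background except cluster 4. The Igj level given above limits cluster 4 for that use. No doublet caller was run.

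Named genes are the 9 members, for each marker list the 3 genes found in most cells, and for each member found in at least 5 cells the 3 genes with the highest Pearson correlation. Amy2a2, Amy2a3 and Amy2a4 were left out of the further acinar genes after their identical values were seen. Alternatives covered the detection level, the classes, cells with under 1000 genes, Rn45s, blocks of 96 cell numbers and the highest cells. Python 3.11.15, pandas 2.3.3, NumPy 2.4.6, SciPy 1.17.1 and Matplotlib 3.10.9 were used, and the fold and correlation steps were tested on simulated data.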

Additional observations from a re-analysis of the deposited data

Results flagged for a closer look

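In the 9 dividing cells of the HIP sort, 4 of the genes were detected in 1 cell each while the other 8 cells were at 0, so that the highest cell stood apart from the rest by the whole range. Ins1 reached 37.4 TPM and Iapp 121.9 TPM, both in cell number 230. Amy2a5 reached 12.8 TPM in cell number 210, and Clps reached 336.6 TPM in cell number 256. Any gene found in a single cell of a small group is picked out in this way, so these 4 are values only. These levels are low beside those of other carrying cells, apart from Clps, whose HIP carriers start at 256 TPM.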

How the results depend on the processing

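The shares of T cells with any of the 9 genes, with Ins2 and with Clps in both sorts, the share of genes 2 times apart and the co-detection of acinar with endocrine transcripts were recomputed under 71 alternatives, and all 71 gave a share within the interval of the reported one or, for the share of genes, within 1.5 times of it. Some alternatives could not move a share: the HIP sort holds no cluster 4 cells, so including that cluster changed nothing there. The intervals are also wide. Ins2 in the Ins sort at 7.83% without block 2 counted as within, beside 11.4% with all blocks. Ratios of mean TPM were not among the 71. Leaving out 1 block of 96 cell numbers at a time, the share with any of the 9 genes lay between 21.9 and 22.7% in HIP and between 17.5 and 26.2% in Ins. For Ins2 it lay between 7.29 and 11.4% in HIP and between 7.83 and 15.4% in Ins, and for Clps between 4.54 and 5.21% in HIP and between 5.37 and 5.73% in Ins. The share of genes 2 times apart was 23.0%, and 30.4% with no filter on the number of cells. Added after the data were seen, leaving out the 2 highest cells turned the ratio of Clps to 1.03. The 2 sorts have 1 sample each, so sort, animal, day and block cannot be told apart. No paired analysis was possible because the labels give no replicate numbers and no test was made. TPM keeps no depth, so a transcript not detected may have been missed in capture.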
